A study of Mus musculus with 12 samples.

Results

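Solute carriers are membrane proteins that move ions, sugars, amino acids, vitamins and other small molecules across the plasma membrane or the membranes of organelles. The members described here are the genes named as solute carriers of families Slc1 to Slc19, without Slc2a1, Slc5a3 and Slc12a2. The rule used the gene name alone, and 105 of the 14986 protein-coding genes present in both the P14 and the P16 table met it. They fall into 18 families, from 2 members (Slc3, Slc11, Slc13 and Slc18) to 14 members (Slc6).

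RNA was measured in dermal papilla (DP) cells, the mesenchymal cells enclosed by the bulb of the hair follicle, sorted as YFP-positive cells from mouse skin. There were 4 groups of 3 mice: controls and Fgfr1/Fgfr2 double mutants (dMF1/2) at postnatal day 14 (P14), and the same genotypes at P16, all labelled as anagen, the growth phase of the hair cycle. The dMF1/2 mice were Cor-cre/+; Fgfr1Flox/Flox; Fgfr2Flox/Flox, so that both receptors were floxed and Cre was expressed from the Corin locus, which is active in the DP after birth. The labels call the controls wild type, whereas the methods give Cor-cre/+; Fgfr1Flox/+; Fgfr2Flox/+ or littermates without Cre, and the YFP reporter needs Cre. YFP-sorted controls of the first kind would carry 1 floxed copy of each receptor, and the tables do not say which kind was sorted. Samples of both genotypes were also exposed to trypsin overnight, then collagenase, and passed through the sorter a second time.

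Transporters of the plasma membrane work as a network. The sodium pump sets up the sodium gradient, and sodium-coupled carriers of families such as Slc1, Slc5, Slc6, Slc8, Slc9 and Slc12 use it to bring in amino acids, choline, taurine and chloride or to expel calcium and protons. Amino acid exchangers of family Slc7 work as light chains bound to a heavy chain of family Slc3, and the lactate carriers of family Slc16 need a glycoprotein partner to reach the membrane. The mesenchyme of the DP sends growth signals to the epithelial matrix that builds the hair, and the end of those signals precedes catagen, the phase of regression.

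Reads on the protein-coding genes listed for each day totalled from 19302358 to 29860750 per library, and the members took between 0.193% and 0.275% of them. Both P14 libraries of replicate 1 stood apart from the other 10 libraries, with 7.06% and 9.15% of these reads on Col1a1, against 13.1% to 17.7%. Ddx3y, a gene of the Y chromosome, had at most 3 reads in P14 control replicate 2, P14 dMF1/2 replicate 2 and P16 control replicate 3, and at least 1324 in each other library. All 13 DP markers examined were measured. Their summed normalized reads ran from 51144 to 98826 in P16 controls and from 114553 to 167671 in P16 dMF1/2, where 4 of 13 were higher and 1 was lower. With the replicate number as a block within the day, 10 of the 13 were higher and 2 were lower at P16, and 1 was higher and 3 were lower at P14. The summed markers of dermal sheath, dermal fibroblasts, follicle keratinocytes, melanocytes, endothelium, immune cells, muscle, adipocytes, erythroid cells and Schwann cells overlapped between genotypes at P16. Plin1, an adipocyte marker, was the 1 gene of these other lists past the threshold without the block (log2 fold change 2.43, adjusted p = 0.00604), and with it Dpt, Pecam1 and Fabp4 were among those that passed too, all 3 lower in dMF1/2. Fgfr1 fell short of the threshold at P14 (log2 fold change -0.40, adjusted p = 0.501) and at P16 (-0.50, adjusted p = 0.130). Fgfr2 differed by -0.11 (adjusted p = 0.974) and -0.01 (adjusted p = 0.978). Whole-gene counts keep the reads of exons outside the floxed part, so neither gene checks the deletion.

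The sorted cells expressed a few transporters strongly and most weakly. Summed markers of dermal fibroblasts ran from 49856 to 65126 normalized reads in P16 controls, and those of dermal sheath from 11308 to 26150. The part of such cells in the levels was not tested. To compare genes with one another, normalized reads were divided by the length of the gene's merged exons in kilobases. The highest level over the 12 libraries was that of Slc6a6, the taurine transporter, at 1119.8 normalized reads per kilobase. The first 10 members took 56.6% of the summed level of all members. Others of these were Slc12a4, a potassium-chloride cotransporter (528 per kilobase), Slc3a2, the heavy chain of amino acid exchangers (516), Slc16a1, a lactate carrier (424), Slc1a5, a glutamine transporter (373), Slc7a5, a light chain that takes up large neutral amino acids (341), Slc2a10, of the glucose transporter family (317), and Slc10a6, a carrier of sulphated steroids (280.4). The median member stood at 20.96 per kilobase against 66.6 for all genes, and 31 of 105 members were above that median.

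**Figure D1:**
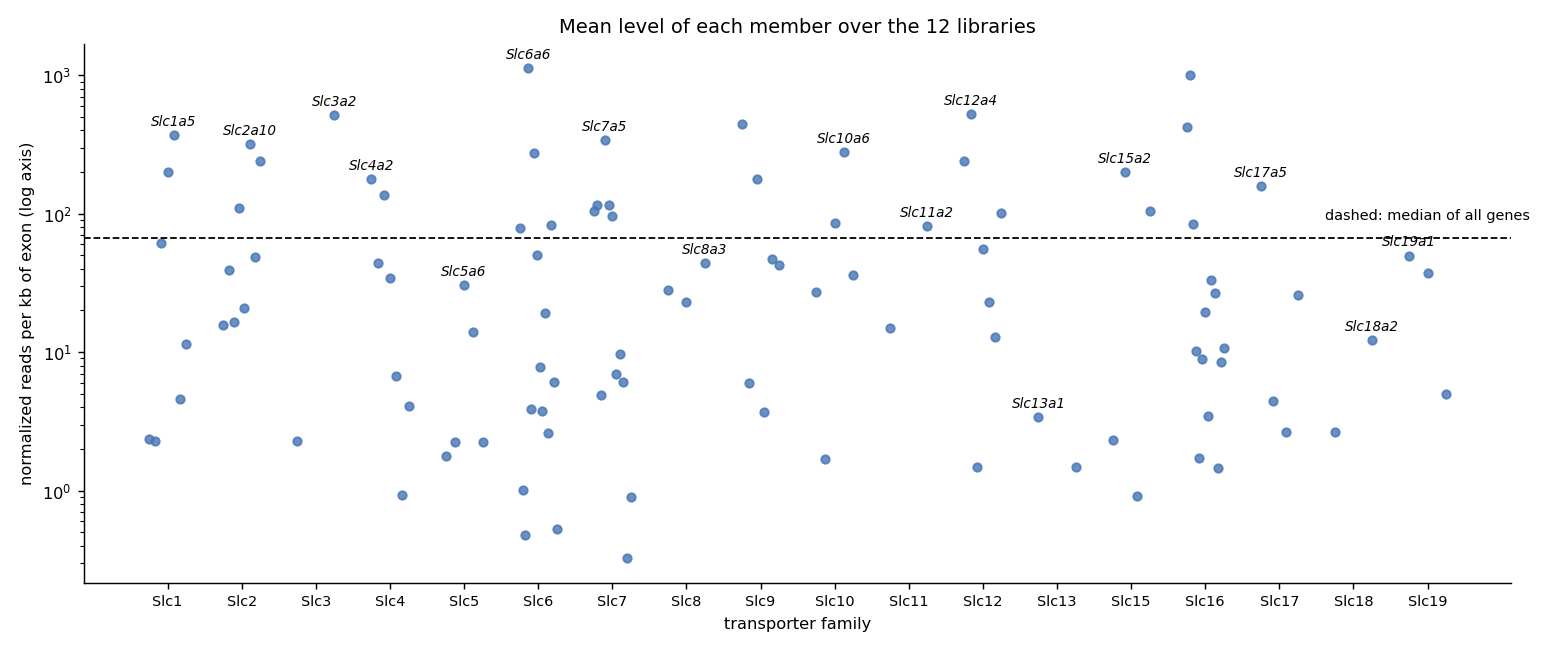
Mean level of each of the 105 members over the 12 libraries, in normalized reads per kilobase of exon on a log axis, by family. Each point is a gene, names mark the highest member of most families, and the dashed line is the median of all genes (66.6 per kilobase); Slc6a6 stands highest, and the highest members of families Slc5, Slc8, Slc13, Slc18 and Slc19 lie under the line.

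Slc6a6 had 9810.2, 8309 and 6829 normalized reads in the P14 controls and 13888, 9229 and 9966 in the P14 dMF1/2 libraries. At P16 it had 10229, 7956 and 7543 in controls and 9110.4, 9366 and 11412 in dMF1/2. The groups overlapped on both days, and the genotype difference at P16 was 0.23 on the log2 scale (adjusted p = 0.456). Slc12a4 varied little at P16, from 2188 to 2354 normalized reads over 6 libraries, with a genotype difference of 0.02 (SE 0.07). The other leading members named above differed between genotypes at P16 by log2 values from -0.47 (Slc10a6) to 0.21 (Slc7a5), and none of the 10 passed the test.

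At P16, 7 of the 88 members tested, those averaging 10 normalized reads or more, differed between genotypes (7.95%, 4 lower and 3 higher in dMF1/2; 4.32% of all 13457 genes tested passed the same test, limma with a Benjamini-Hochberg adjusted p under 0.05). Slc12a1, Slc15a2, Slc17a5 and Slc4a7 were lower in dMF1/2, and Slc5a7 and Slc16a9 were among the higher. The background was 2.14% of all genes lower and 2.18% higher. The median log2 fold change of the 88 members was -0.003 and that of all genes was -0.004, with 43 members above 0 and 45 below it. The groups did not overlap for 24 of the 88 members (27.3%), against 24.5% of all genes. Slc17a5 alone of the 7 passed the test in each fit that left out 1 of the 6 libraries. The count was 2 without control replicate 3 (Slc17a5 the only 1 of the 7), when 1.37% of all genes passed. It was 2 without dMF1/2 replicate 3 (Slc17a5 and Slc5a7), against 1.11% of all genes, and 4 without control replicate 1, against 2.96%. With the replicate number as a block within the day, 13 members passed, all 7 among them, against 10.4% of all genes. The 6 added were Slc1a4 (log2 fold change 0.39, adjusted p = 0.0228 with the block) and Slc12a9 (0.36, 0.0411), which were higher, and Slc2a6 (-1.26, 0.0142), Slc7a2 (-0.43, 0.0225), Slc9a5 (-0.94, 0.0457) and Slc16a10 (-0.60, 0.0423), which were lower.

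**Figure D2:**
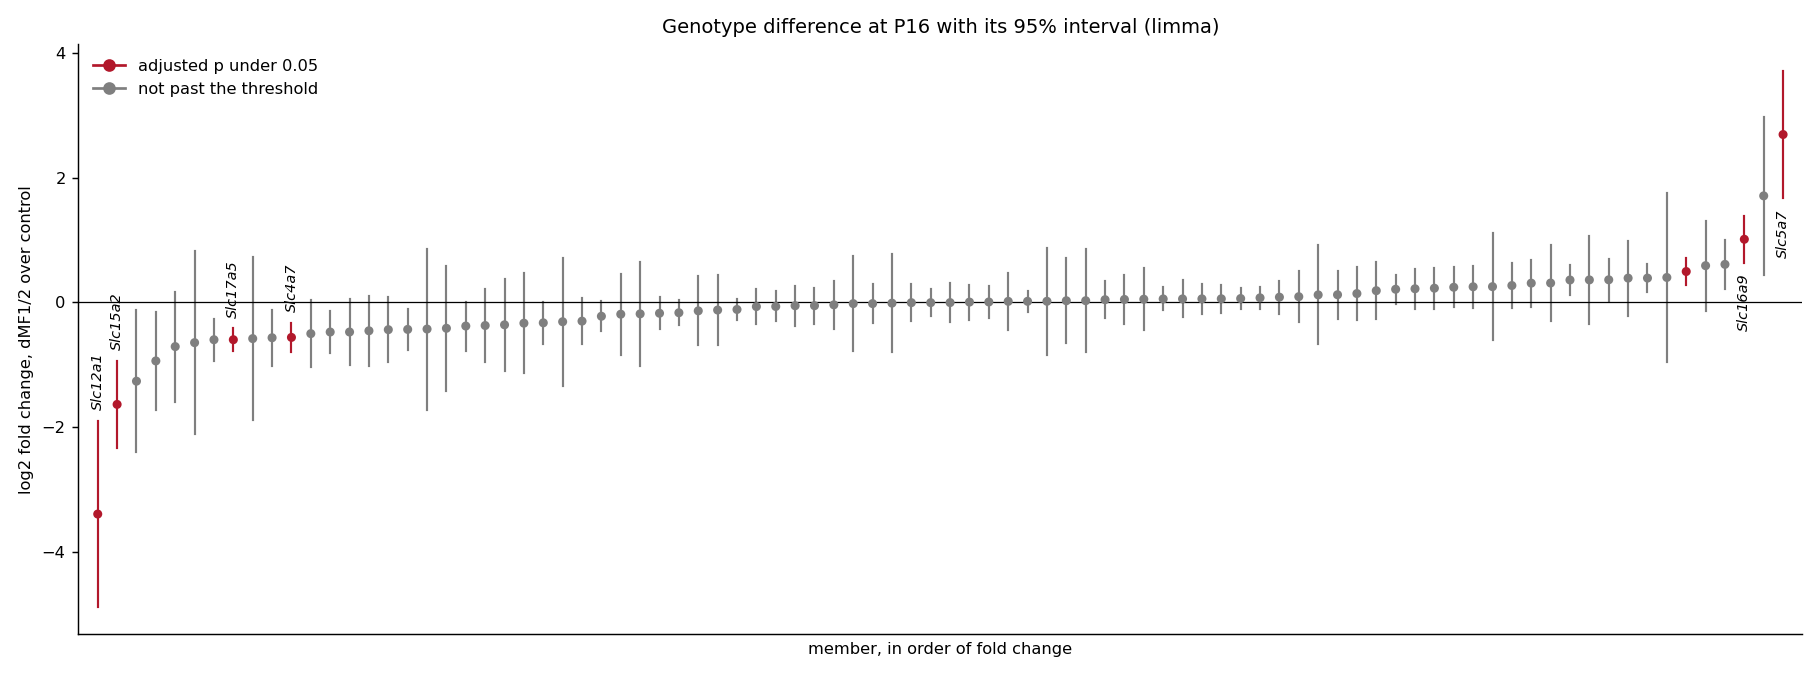
Log2 fold change of dMF1/2 over control at P16 for the 88 members tested, in order of fold change, each with its 95% interval from limma; 6 members are named. Red marks the 7 members with an adjusted p under 0.05, from Slc12a1 at -3.40 to Slc5a7 at 2.70, and most other members lie close to 0.

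Slc12a1 carries sodium, potassium and chloride together into the cell and is best known from the thick ascending limb of the kidney, where loop diuretics block it. It had 4556, 3069 and 5714 normalized reads in the P16 controls and 1062, 130.3 and 482 in the P16 dMF1/2 libraries. Each dMF1/2 library was below each control library, and dMF1/2 replicate 2 was the lowest. The log2 fold change was -3.40 (SE 0.65, 95% interval -4.90 to -1.90, adjusted p = 0.0285), or 10.5-fold lower in dMF1/2. The call was lost without control replicate 1, control replicate 3 or dMF1/2 replicate 3 (highest adjusted p 0.105). Leaving out dMF1/2 replicate 2 moved the log2 fold change of Slc12a1 to -2.58, and leaving out dMF1/2 replicate 1 moved it to -4.09. Slc12a1 ranked 12th of the 105 members by level over all libraries. In P16 controls it reached 772 ± 230.1 per kilobase (SD, n = 3), beside 530.0 ± 13.4 for Slc12a4. With Slc12a2 left out, Slc12a4 was the highest member of the family in the other 3 groups.

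Slc15a2 takes up dipeptides and tripeptides together with protons. It had 3007, 2295 and 3601 normalized reads in P16 controls and 1167, 556 and 1253 in P16 dMF1/2. The groups did not overlap, and the log2 fold change was -1.64 (SE 0.30, 95% interval -2.34 to -0.94, adjusted p = 0.0258). Its call was lost without the same 3 libraries as that of Slc12a1, with a highest adjusted p of 0.0946. Slc17a5, which exports sialic acid from lysosomes, had 762, 783 and 761 in P16 controls and 514, 511 and 490.2 in P16 dMF1/2. Its libraries lay close together within each group, and the log2 fold change of -0.60 (SE 0.0784) had the smallest adjusted p of the members (0.00841; at most 0.0431 with a library left out). Slc4a7, a sodium-bicarbonate cotransporter, had 799, 652 and 734 and 486, 461 and 522 in the same groups. The log2 fold change was -0.56 (SE 0.104, adjusted p = 0.0258), and it held only when control replicate 2 was the library left out (up to 0.0913 without any other).

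Slc5a7 is the high-affinity choline transporter, best known from cholinergic nerve endings. It had 10.3, 16.3 and 17.02 normalized reads in P16 controls and 57.03, 80.7 and 198 in P16 dMF1/2. It was a low-level gene, with 13.9 normalized reads per kilobase over all libraries, and dMF1/2 replicate 3 was its highest library at P16. The log2 fold change was 2.70 (SE 0.44, 95% interval 1.67 to 3.72, adjusted p = 0.0175), the largest rise of the 88 members, and it was lost without control replicate 3 (adjusted p = 0.0565). Slc16a9, a family member linked to carnitine export, had 70.6, 90.7 and 75.1 in P16 controls and 146, 149 and 184 in P16 dMF1/2. The log2 fold change was 1.01 (SE 0.16, adjusted p = 0.0162). It was lost without control replicate 3 (0.0658) or dMF1/2 replicate 3 (0.0693). Of its 3869 exonic bases, 491 lie across from the antisense gene Gm7097 and 419 across from the pseudogene Gm9877, on a library prepared with strand.

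**Figure D3:**
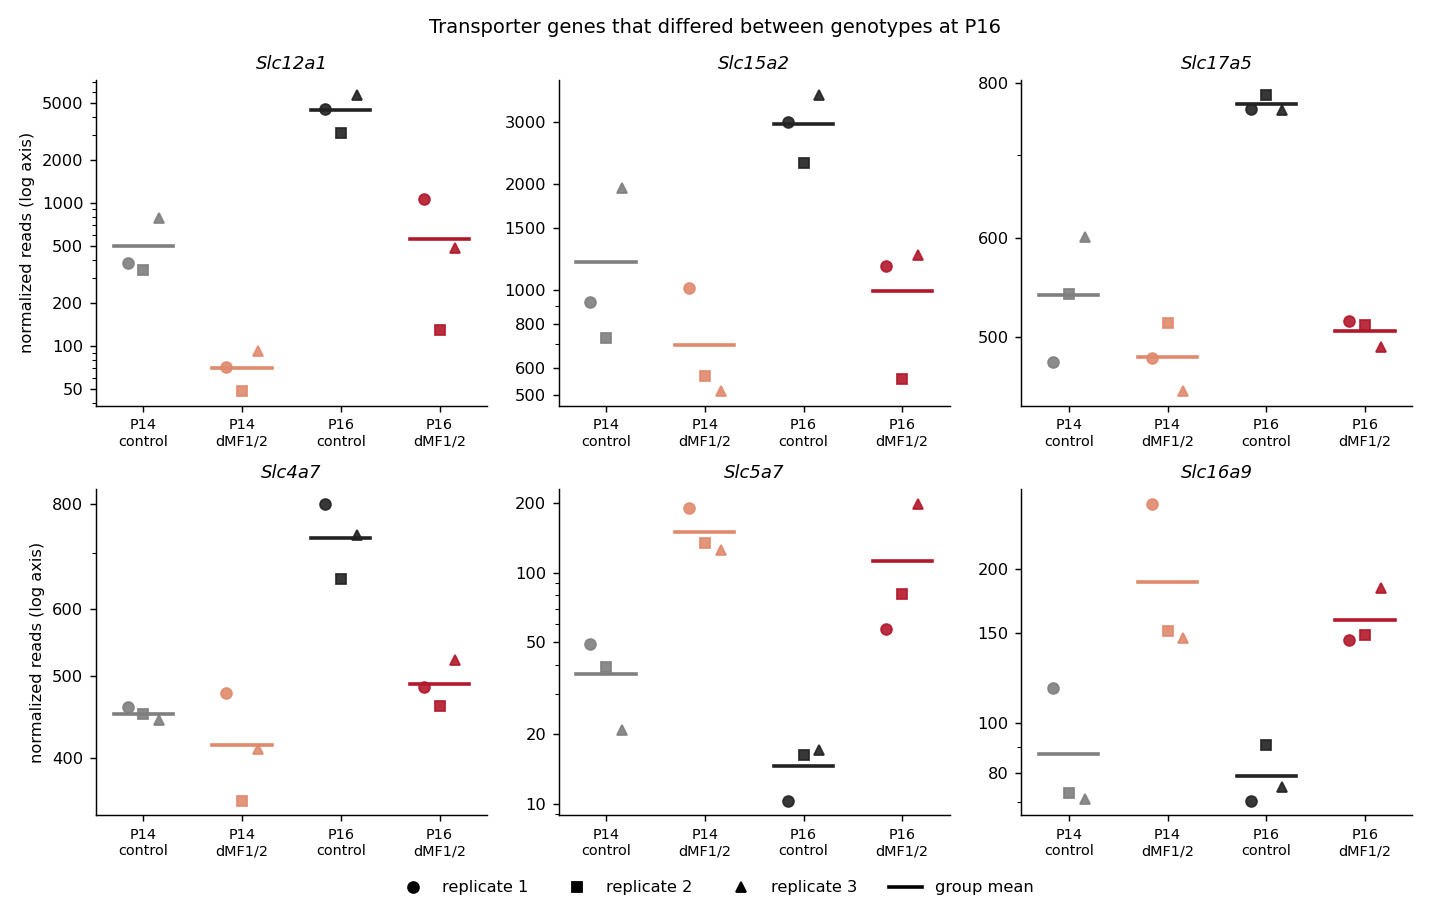
Normalized reads, on log axes, of 6 members that differed between genotypes at P16, in each of the 12 libraries; the symbol gives the replicate number within a group and the bar the group mean. At P16 the control and dMF1/2 libraries do not overlap in any of the 6 panels, and for Slc12a1, Slc5a7 and Slc16a9 they do not overlap at P14 either.

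The DNA just before the start of a gene is shown for the 4 members with the largest fold changes among those called at P16, to show the sequence beside which transcription starts. Gene starts and sequences are those of RefSeq on GRCm38.p6, which held a promoter for 76 of the 105 members. Bases past the gene start used for counting were left out of the print. The stretches of Slc12a1 and Slc16a9 therefore stop short of the RefSeq start, as their searched windows run on to 125152599 and 70245275. For Slc15a2 the capitals mark a match to the hypoxia-response letters ACGTG, and the other 3 hold none of the motifs searched.
Slc12a1, chr2:125152350-125152504, plus strand: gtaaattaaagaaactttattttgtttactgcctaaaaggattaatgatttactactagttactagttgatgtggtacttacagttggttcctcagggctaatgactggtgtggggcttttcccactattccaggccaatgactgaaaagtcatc
Slc15a2, chr16:36784963-36785212, minus strand: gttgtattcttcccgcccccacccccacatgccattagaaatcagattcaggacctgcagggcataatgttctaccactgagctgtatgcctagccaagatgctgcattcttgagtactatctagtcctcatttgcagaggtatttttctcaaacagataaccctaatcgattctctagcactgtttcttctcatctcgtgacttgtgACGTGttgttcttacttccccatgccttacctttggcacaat
Slc5a7, chr17:54299035-54299284, minus strand: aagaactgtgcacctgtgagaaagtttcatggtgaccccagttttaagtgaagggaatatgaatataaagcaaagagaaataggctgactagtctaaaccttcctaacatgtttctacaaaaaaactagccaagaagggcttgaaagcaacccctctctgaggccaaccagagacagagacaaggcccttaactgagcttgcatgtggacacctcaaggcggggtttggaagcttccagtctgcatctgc
Slc16a9, chr10:70245026-70245099, plus strand: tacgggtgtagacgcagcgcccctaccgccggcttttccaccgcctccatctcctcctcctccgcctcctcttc
The motifs were searched on both strands of the 250 bases before the start of each of 27025 promoters, 11622 of which belong to genes in the tables. The AP-1 letters TGACTCA were found in 4.43% of all promoters, in 3.28% of those of genes in the tables and in 5 of the 76 members' promoters. The ETS letters CCGGAAGT were found, in the same order, in 2.93%, 5.16% and 0 of 76. The TCF/LEF letters ATCAAAG were found in 3.23%, 2.36% and 2 of 76. ACGTG was found in 16.6%, 20.6% and 16 of 76. The ATF4 letters TGATGCAA were found in 0.818%, 0.568% and 1 of 76. None of the 5 motifs contains another, and a match describes letters in a window only.

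At P14, 0 of the 88 members tested passed the threshold in limma, against 0.0525% of 13334 genes. At an unadjusted p under 0.05 there were 12 members (7.32% of all genes), edgeR called 0, DESeq2 called 3 (1.55% of all genes) and limma with the replicate block called 4 (1.68% of all genes). The median log2 fold change of the members was 0.04 and that of all genes was 0.00. The groups did not overlap for 16 members (18.2%), against 12.7% of all genes. The 5 smallest unadjusted p-values belonged to Slc12a1, Slc5a7, Slc8a3, Slc16a9 and Slc16a3.

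Slc12a1 had 380.3, 337 and 789 normalized reads in the P14 controls and 70.8, 48.5 and 91.96 in the P14 dMF1/2 libraries. The groups did not overlap, with a log2 fold change of -2.75 (SE 0.36, adjusted p = 0.106, or 0.00117 with the block). Slc5a7 had 49.1, 39.1 and 20.8 in controls and 191, 135 and 126 in dMF1/2. Its log2 fold change was 2.08 (SE 0.34, adjusted p = 0.146, or 0.00541 with the block). Slc16a9 had 117, 72.9 and 71.2 and 269, 152 and 147. Replicate 1 was the highest library of both genotypes, and the log2 fold change was 1.10 (SE 0.30, adjusted p = 0.377, or 0.0114 with the block). The fourth member called with the block was Slc2a13, a proton-coupled inositol transporter, with 1908, 1663 and 2098 in controls and 1441, 1164 and 1580.2 in dMF1/2. Its log2 fold change was -0.44 (adjusted p = 0.496, or 0.0353 with the block). For Slc12a1, Slc5a7 and Slc16a9, which were also called at P16, the P14 groups were apart in the same direction as at P16.

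Slc8a3, a sodium-calcium exchanger, had 224, 204 and 205 normalized reads in P14 controls and 301, 258 and 285 in P14 dMF1/2. The groups were apart, with a log2 fold change of 0.42 (SE 0.11, adjusted p = 0.369), and at P16 it was 0.36 (adjusted p = 0.230). Slc16a3, a lactate exporter, had 519.9, 469.7 and 497 and 325, 408 and 410.5, with a log2 fold change of -0.38 (SE 0.12, adjusted p = 0.495). At P16 its groups overlapped (log2 fold change 0.04). Of the other members called at P16, Slc15a2, Slc17a5 and Slc4a7 overlapped between genotypes at P14, with log2 fold changes of -0.72 for Slc15a2, -0.16 for Slc17a5 and -0.13 for Slc4a7. Slc15a2 had 925, 727 and 1954 in P14 controls and 1010.2, 566 and 515 in P14 dMF1/2.

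Between P14 and P16 in controls, 12 of 88 members passed the test (13.6%, against 14.5% of 13415 genes), of which 11 rose and 1 fell. Over all genes, 6.26% rose and 8.28% fell. The members' median log2 change was 0.18 against 0.01 for all genes, with 57 members above 0 and 31 below. The groups of the 2 days did not overlap for 32 members (36.4%), against 36% of all genes. The summed DP markers moved between the days as well, from 131625 to 197558 normalized reads in P14 controls to between 51144 and 98826 in P16 controls, where 6 of 13 fell and 0 rose. Summed melanocyte markers went from 517 to 676 in P14 controls to between 812 and 904 in P16 controls, and most of that sum was Mitf, which rose (log2 change 0.52, adjusted p = 0.0140) and was the 1 of 4 tested that passed, while Pmel changed by -0.04 (adjusted p = 0.960). The summed endothelial and adipocyte markers overlapped between the days in controls. In these lists Emcn rose (2.52, adjusted p = 0.0252), and Tek (-0.94, 0.0341) and Plin1 (-2.37, 0.00558) fell. Summed erythroid markers went from 2.96 to 15.2 to between 37.9 and 187, with 2 of the 6 listed genes not in the tables, and Hbb-bs, the 1 tested, rose by 4.97 (adjusted p = 0.00663). The part of these lists in the members' changes was not tested, and in bulk RNA fewer cells of a kind and less RNA per cell cannot be told apart.

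The largest rise in controls was that of Slc12a1, by 3.21 on the log2 scale (SE 0.61, adjusted p = 0.00830), from 337 to 789 normalized reads at P14 to between 3069 and 5714 at P16. Slc15a2 rose by 1.41 (adjusted p = 0.0373). Slc6a18, a transporter of neutral amino acids known from the kidney, rose by 1.11 (adjusted p = 0.0363) at a low level, from 18.9, 13.05 and 16.8 to 43.03, 33.6 and 32.05 normalized reads. Slc10a6, the steroid sulphate carrier, had 388, 357 and 534 at P14 and 1031, 948 and 706 at P16, a rise of 1.07 (SE 0.18, adjusted p = 0.00443). Its days did not overlap in either genotype.

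Slc7a2, which takes up arginine and other cationic amino acids, had 648, 855 and 991 normalized reads in P14 controls and 1746, 1303 and 1316 in P16 controls, a rise of 0.81 (SE 0.18, adjusted p = 0.0140). Slc16a10, which carries aromatic amino acids, had 183, 142 and 181 and 318, 241 and 313, a rise of 0.78 (adjusted p = 0.0108). Slc7a6, a light chain of the Slc3a2 heavy chain, rose by 0.33 (adjusted p = 0.0280). Slc6a8, the creatine transporter, rose by 0.34 (adjusted p = 0.0465). Slc1a4, a carrier of alanine, serine and cysteine, was the 1 member that fell, from 771, 856 and 764 to 626, 691 and 577 (log2 change -0.34, adjusted p = 0.0257). With the replicate number as a random block 13 members passed (14.3% of all genes), the added one being the fall of Slc12a9, a chloride cotransporter relative (-0.49, adjusted p = 0.0492). The remaining rises were those of Slc4a7 (0.68, adjusted p = 0.00443), Slc17a5 (0.52, 0.00617) and Slc19a2, a thiamine transporter (0.45, 0.0364).

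Slc12a1, Slc10a6, Slc4a7, Slc17a5 and Slc16a10 kept their call with any of the 6 control libraries left out (adjusted p at most 0.0491). Slc7a2 lost it without P14 control replicate 1 (0.0505) or P16 control replicate 1 (0.0591). Slc15a2, Slc19a2 and Slc1a4 each lost it without P14 replicate 1 or 2 or P16 replicate 1 or 3 (up to 0.133), and Slc7a6 without any but P14 replicate 2 (up to 0.0905). Slc6a18 and Slc6a8 lost it whichever control library was left out (up to 0.158). Slc15a2 and Slc6a8 also lost their calls in edgeR (adjusted p = 0.05003 and 0.0554), and Slc6a8 lost it with TMM scaling (0.0566) or without the filter on low values (0.0504). Without both P14 libraries of replicate 1, 6 members passed, against 7.09% of all genes: Slc12a1, Slc10a6, Slc4a7, Slc17a5, Slc16a10 and Slc7a2, all of which rose.

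Between P14 and P16 in dMF1/2, 3 of 88 members passed (3.41%, against 5.8% of all genes, of which 1.83% rose and 3.97% fell). The days did not overlap for 17 members (19.3%), against 27.6% of all genes. Summed DP markers ran from 116472 to 200249 normalized reads in P14 dMF1/2 and from 114553 to 167671 in P16 dMF1/2, with 0 of 13 passing. Summed melanocyte markers went from between 601 and 635 to between 775 and 843, with 0 of 4 tested passing. The part of these lists in the members' changes was not tested in dMF1/2 either. Slc12a1 rose by 2.56 (SE 0.61, adjusted p = 0.0342), from 70.8, 48.5 and 91.96 to 1062, 130.3 and 482 normalized reads. Its P16 dMF1/2 libraries overlapped the range of the P14 controls, and the call was lost without any 1 dMF1/2 library other than P16 replicate 2 (up to 0.121). The log2 change of Slc12a1 was 1.87 without P16 replicate 1 and 3.37 without P16 replicate 2. Slc18a2, the vesicular monoamine transporter, had 46.03, 51.7 and 47.1 in P14 dMF1/2 and 76.04, 86.2 and 85.2 in P16 dMF1/2, a rise of 0.76 (SE 0.14, adjusted p = 0.0109). It kept its call with each library left out. Slc7a10, a light chain that exchanges small neutral amino acids, fell from 34.95, 24.8 and 29.2 to 7.39, 16.5 and 8.31 (log2 change -1.45, adjusted p = 0.0336). That call too was lost without any 1 library other than P16 replicate 2 (up to 0.135), and 377 of its 2111 exonic bases lie across from Lrp3. In controls Slc7a10 changed by -0.89 (adjusted p = 0.103) and its days did not overlap. Without both P14 libraries of replicate 1, 2 members passed (6.1% of all genes), 1 in each direction, and Slc18a2 was among them.

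**Figure D4:**
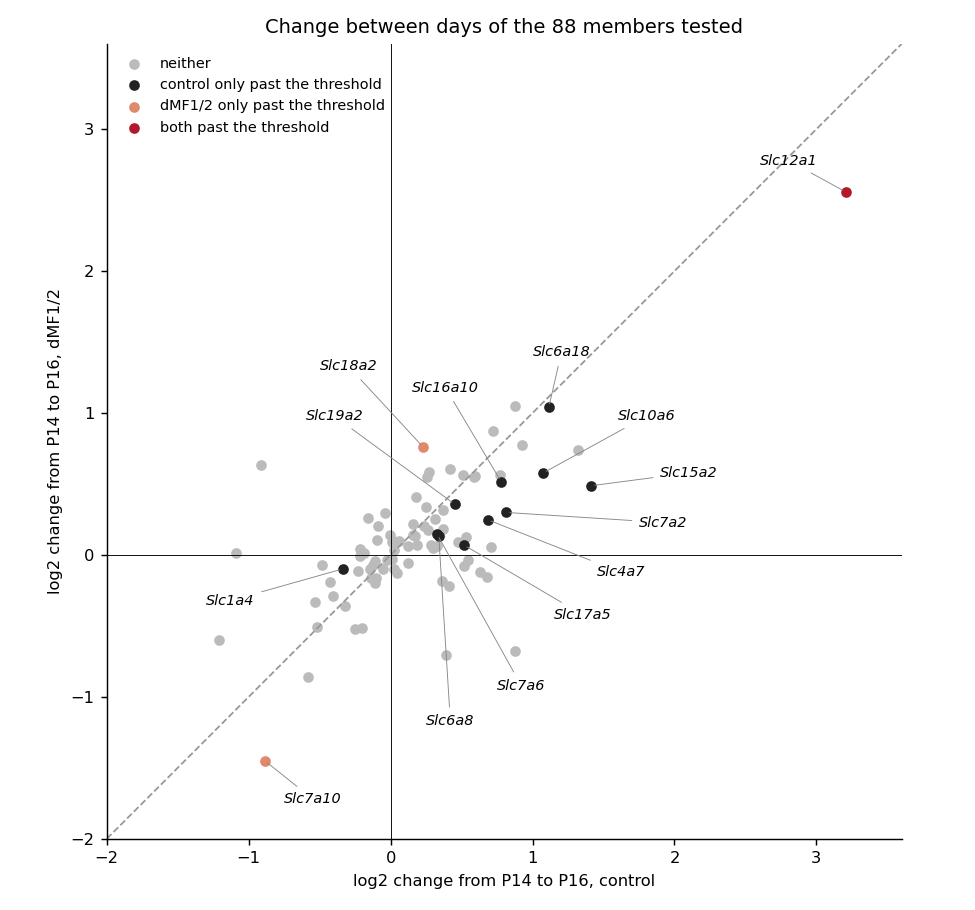
Log2 change from P14 to P16 in controls (horizontal) and in dMF1/2 (vertical) for the 88 members tested; the dashed line marks equal change. Slc12a1 lies far out on both axes (3.21 and 2.56), and the other members past the threshold in controls alone that rose lie under the dashed line. Picking members that passed in controls and not in dMF1/2 favours that side. The test of the difference between the 2 changes called 0 of the 88 members.

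The changes in the 2 genotypes share no library, but same-numbered libraries of the genotypes deviated together within a day (correlations from 0.256 to 0.586), so the 2 changes are not independent. They had the same sign for 67 of the 88 members (76.1%, against 76.7% of all genes), and across members their Pearson correlation was 0.707 (0.597 over all genes), with genes that are not independent of one another. The members' median change was 0.18 in controls and 0.07 in dMF1/2. The difference of the 2 changes was tested as the interaction of genotype and day, in which limma called 0 of 88 members and 0% of all genes. At an unadjusted p under 0.05 there were 7 members (4.83% of all genes). Both edgeR (0% of all genes) and DESeq2 (0.0522% of all genes) called 0 members. Of the members called at P16, the interaction was -0.45 for Slc17a5 (unadjusted p = 0.00506), -0.44 for Slc4a7 (0.0190), -0.93 for Slc15a2 (0.129) and -0.65 for Slc12a1 (0.468). None of these differences between days in the genotype effect was therefore shown.

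The 4 members lower in dMF1/2 at P16 were all among the 11 that rose in controls between P14 and P16. The 2 comparisons share the P16 control libraries, so that a high value in those libraries enters both. Slc17a5 had 539.6 ± 62.2 normalized reads in P14 controls, 482 ± 30.3 in P14 dMF1/2, 769 ± 12.3 in P16 controls and 505 ± 13.1 in P16 dMF1/2 (mean ± SD, n = 3). Slc4a7 had 451 ± 7.90, 415 ± 60.6, 728 ± 74.1 and 489.9 ± 30.7 in the same order. For both genes each P16 control library stood above all libraries of the other 3 groups.

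Among the amino acid carriers of the plasma membrane, family Slc1 (acidic and neutral amino acids, 7 members) had 0 of 6 tested members past the threshold at P16, with log2 fold changes from -0.58 (Slc1a1) to 0.39 (Slc1a4 and Slc1a7). Slc1a5 had 1323, 1716 and 1520.1 normalized reads in P16 controls and 1658, 1500.1 and 1226 in P16 dMF1/2. In family Slc3, Slc3a2 had 2194, 1806 and 2194 and 1700.4, 1728 and 2034 (log2 fold change -0.17), while Slc3a1, the heavy chain known from kidney and gut, had at most 10 reads in any library. Family Slc7 had 0 of 9 past the threshold at P16, with a median of -0.17. Slc7a5, its highest member, had 1162, 1337 and 1155 in P16 controls and 1260.0, 1527 and 1428 in P16 dMF1/2. The genotype groups were apart for Slc7a2, Slc7a6 and Slc7a7 at P16, all lower in dMF1/2, with log2 fold changes of -0.43 (adjusted p = 0.136), -0.17 (0.370) and -0.22 (0.304). Over all genes the P16 groups were apart for 24.5%, with 11.6% lower and 12.9% higher in dMF1/2. Slc7a7, a light chain that exchanges cationic for neutral amino acids, was apart at P14 too (-0.30, adjusted p = 0.566). Slc1a4 was apart in the other direction, with 626, 691 and 577 and 794, 861 and 812 (0.39, adjusted p = 0.0612 without the block).

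Family Slc6 moves neurotransmitters, creatine, taurine and amino acids with sodium and chloride. It had 0 of 11 tested members past the threshold at either day, with P16 log2 fold changes from -0.71 (Slc6a11, a GABA transporter) to 0.59 (Slc6a15, a neutral amino acid transporter). In family Slc16, Slc16a1 had 2158, 2146 and 1801 normalized reads in P16 controls and 1827, 2421 and 1846 in P16 dMF1/2, a log2 difference of -0.003. Slc16a9 was the 1 of 10 tested members of the family past the threshold at P16. The hexose carriers of family Slc2 are described without Slc2a1. Of these members, 0 of 8 passed at either day, and the median log2 fold change at P16 was -0.18. Slc2a10 had 1155, 1111 and 1019 in P16 controls and 1132, 1126 and 1138 in P16 dMF1/2. Slc2a6, a lysosomal member, had 194, 52.00 and 68.1 and 58.1, 26.6 and 30.1, so that its groups overlapped and control replicate 1 was far above the rest.

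Of the carriers of ions, family Slc12 moves chloride with sodium or potassium. The summed level of its members, which leave out Slc12a2, was 813 normalized reads per kilobase in P14 controls and 736 in P14 dMF1/2. At P16 it was 1476 in controls and 830 in dMF1/2. Slc12a1 was the 1 of 7 members past the threshold at P16. The potassium-chloride cotransporters Slc12a4 and Slc12a7 differed between genotypes by 0.02 and 0.14 on the log2 scale. Family Slc4, bicarbonate carriers, had 1 of 6 past the threshold (Slc4a7). Slc4a2, a chloride-bicarbonate exchanger and the highest of the family at 177 per kilobase, differed by 0.07. Family Slc8, sodium-calcium exchangers, had 0 of 3 past the threshold at either day. Its members Slc8a1, Slc8a2 and Slc8a3 had P16 log2 fold changes of 0.06, 0.61 (adjusted p = 0.0932) and 0.36.

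Among the smaller families, Slc5 had 1 of 2 tested members past the threshold at P16 (Slc5a7). Slc5a6, which carries biotin and pantothenate, led the members of this family, without Slc5a3, at 30.3 per kilobase and differed by 0.31 (adjusted p = 0.606). Family Slc10 had 0 of 4 past the threshold. Slc10a6 had 616, 597 and 689 normalized reads in P16 dMF1/2, each below the lowest P16 control (log2 fold change -0.47, adjusted p = 0.117). In family Slc11, Slc11a2, an iron importer, stood at 81.7 per kilobase and differed by -0.06. In family Slc13, Slc13a1, a sulphate carrier, stood at 3.41 per kilobase and differed by 0.12. Family Slc15 had Slc15a2 as its 1 of 3 past the threshold, and Slc15a4, a transporter of lysosomes, differed by 0.008. Family Slc17 had Slc17a5 as its 1 of 4. In family Slc18, Slc18a2 differed at P16 by 0.27 (adjusted p = 0.404) with groups apart. In family Slc19, Slc19a1, the folate carrier, differed by 0.06. Slc19a3, a thiamine transporter, had 9.47, 7.14 and 2.003 in P16 controls and 12.7, 23.9 and 24.9 in P16 dMF1/2, a log2 difference of 1.71 (adjusted p = 0.134) at counts near the floor.

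A list of 60 names, which stand for 57 genes, of the pumps, kinases, chaperones and regulators of these carriers was followed beside them, and 54 of the genes were in both tables. At P16, 2 of 51 tested genes were higher in dMF1/2 and 3 were lower (2.18% and 2.14% of all genes), with a median log2 fold change of -0.04. At P14, 0 of 48 passed (0.0525% of all genes). Fxyd5, a regulator of the sodium pump, had 746, 635 and 769 normalized reads in P16 controls and 118, 118 and 112 in P16 dMF1/2, a log2 fold change of -2.60 (SE 0.11, adjusted p = 1.25e-04). Tbc1d1, a GTPase-activating protein in the traffic of glucose transporters, had 591, 628 and 638 and 365, 401 and 347 (-0.73, adjusted p = 0.00796). Vldlr, a lipoprotein receptor listed with the genes of the amino acid response, had 1564, 2169.7 and 1866 and 1186, 720.2 and 811 (-1.06, adjusted p = 0.0258), and at P14 -1.12 (adjusted p = 0.132, or 0.0136 with the block). Klhl3, which marks the WNK kinases of chloride cotransporters for degradation, was higher, with 6.02, 10.2 and 16.02 and 28.5, 37.6 and 54.01 (1.86, adjusted p = 0.0432). Trib3, a pseudokinase induced in the amino acid response, had 36.1, 61.2 and 42.1 and 102, 104 and 126 (1.27, adjusted p = 0.0216).

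By group within the list, 1 of 9 sodium pump genes passed at P16 (Fxyd5), 1 of 9 genes of the WNK and SPAK kinases (Klhl3), 0 of 8 chaperones and partners, 1 of 7 trafficking genes (Tbc1d1), 0 of 4 carbonic anhydrases and 2 of 14 genes of the amino acid response (Trib3 and Vldlr), against 4.32% of all genes. With the replicate block the counts at P16 were 5 higher and 7 lower (10.4% of all genes passed), and at P14 0 higher and 3 lower (1.68%). Emb, of the chaperones and partners, was in both counts with opposite signs. With the block it was lower in dMF1/2 at P14 (-1.14, adjusted p = 0.00711) and higher at P16 (1.12, 0.0415). In controls Emb fell between the days (log2 change -1.48, adjusted p = 0.0410 without the block). In the change between days, 6 higher and 6 lower of 49 genes passed in controls (6.26% and 8.28% of all genes) and 1 (Fxyd1, a fall) in dMF1/2 (5.8% of all genes), and 0 passed in the interaction, in which limma called no gene of any kind.

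The P14 libraries of replicate 1, 1 of each genotype, stood apart for many members. Both were below the other 4 P14 libraries for 21 of 88 members (23.9%, against 17.2% of all genes) and above them for 11 (12.5%, against 14.5%). Slc6a2, the noradrenaline transporter, had 65.1 and 129 normalized reads in these libraries and from 403 to 608 in the other 4. Slc17a9, which loads nucleotides into vesicles, had 18.9 and 40.1, against 94.8 to 126. Slc16a7, a monocarboxylate carrier, had 94.4 and 116, against 190.3 to 240.1. Slc7a1, which takes up cationic amino acids, had 722 and 749, against 1084 to 1569. These 4 were chosen after their values were seen. At P16 the libraries of replicate 1 did not stand low for any of the 4 genes. The leading members Slc16a1, Slc7a5, Slc3a2 and Slc12a4 were among the 21, and Slc1a5 was among the 11. The same libraries had the low share of Col1a1 given above. Cd34, a dermal fibroblast marker, had 10646 and 12383 normalized reads in them, against 21392 to 25315 in the other 4 P14 libraries. Acta2, of the dermal sheath, had 4773 and 5508, against 9031 to 12477. Corin, of the DP, had 39219 and 42680, against 20793 to 30624. Not all markers of these lists stood apart, as Sfrp4, of the fibroblasts, had 2201 and 1512, against 1926 to 2455. The part of these differences in the members' values was not tested.

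**Figure D5:**
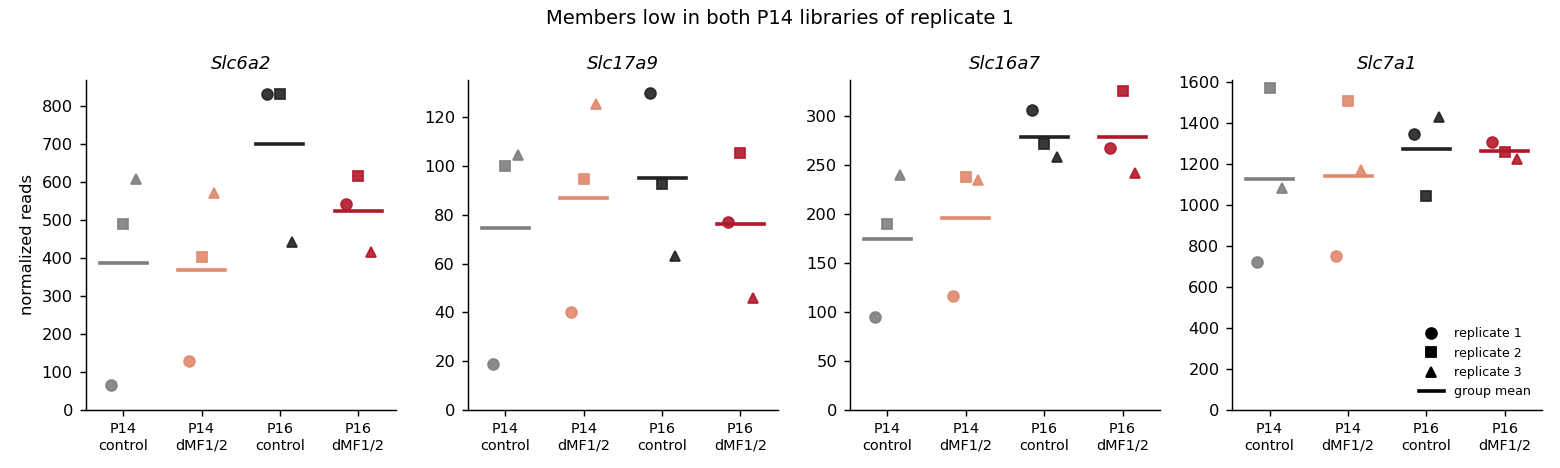
Normalized reads of 4 members in each of the 12 libraries, on axes from 0; the symbol gives the replicate number within a group and the bar the group mean. At P14 the circles of replicate 1 lie under the other libraries of both genotypes in each panel, and at P16 they do not.

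The mean over the 12 libraries was under 10 normalized reads for 17 members, none of which had more than 20 reads in a library. They were Slc1a6, Slc3a1, Slc4a10, Slc5a2, Slc5a5, Slc5a12, Slc6a4, Slc6a5, Slc6a19, Slc7a14, Slc7a15, Slc10a2, Slc13a4, Slc15a3, Slc16a5, Slc16a8 and Slc16a11. Of these, Slc1a6 was tested at P14, and Slc15a1 was tested in the other fits but not at P14. Slc3a1, Slc6a4, Slc6a19, Slc7a14 and Slc7a15 had 0 reads in at least 1 library. Several are known from kidney, gut or neurons, such as Slc5a2, the glucose carrier of the kidney, and Slc6a4, the serotonin transporter.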

How the data were processed

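Sorted dermal papilla cells were profiled from 12 mice, 3 per genotype and day. The authors depleted ribosomal RNA, made stranded libraries, sequenced 61-base single-end reads, trimmed them (Trimmomatic), aligned them to mm10 (Tophat) and assigned them to Ensembl genes of GRCm38.p4 (HTSeq-count). The deposited signal values are reads divided by the authors' DESeq2 size factors, in 1 table per day (15209 and 15334 genes). The authors' means, fold changes and test columns in the same tables were not used. All values were whole multiples of 1 read per library within 0.01, so whole reads were recovered.

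The plan named limma on log2(normalized reads + 1) for genes averaging 10 or more (R 4.3.3, limma 3.58.1, mean-variance trend), Benjamini-Hochberg over all genes, threshold 0.05. Genotypes were compared within a day in the deposited scaling. Changes between days and the interaction came from 1 fit of 12 libraries and 4 groups, rescaled by median of ratios, and library values are printed on that scale (from 0.978 to 1.01 times the deposited value). Fold changes are on the log2(value + 1) scale. With 3 against 3 an exact permutation test cannot go below p = 0.1, so it is not quoted by gene. The p-values measure the spread between these mice.

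Deviations of same-numbered libraries from their group means correlated within a day (0.586, 0.389 and 0.304 at P14, 0.256, 0.293 and 0.311 at P16). Blocked values are therefore given for members where they change a call. For the DP markers and the list of pumps, kinases, chaperones and regulators, blocked counts are given between genotypes. The fits were tested on simulated reads and recovered most, not all, of the changed genes. Exon lengths and coordinates come from GENCODE vM21 on GRCm38.p6. edgeR 4.0.16, DESeq2 1.42.0, TMM scaling, pseudocounts of 0.1 and 10, other filters, other sample sets and leaving out each library were alternatives. Leaving out both P14 libraries of replicate 1 was chosen after seeing the data. Members named are those called between genotypes, up to 10 called rises and falls per change between days, the 10 highest levels per kilobase, the highest of each family, the 5 smallest p-values at P14, called partner genes, and further members where a family is described, but the values of some of these are not reported here. The members, lists and tests were chosen with earlier results of these data known. Libraries of other days were not analysed here.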

Additional observations from a re-analysis of the deposited data

How the results depend on the processing

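TMM scaling, edgeR, other pseudocounts and other filters moved no count of members past the threshold by over 1.5 times, although Slc6a8 and Slc15a2 lost calls between the days in controls. At P14 the count of 0 became 3 with DESeq2 (1.55% of all genes) and 4 with the replicate block, and stayed 0 with each library left out. At P16 the 7 became 11 with DESeq2 (8.35% of all genes) and 13 with the replicate block, and ran from 2 to 9 with 1 library left out. In controls between the days, the 12 became 6 in a fit of the 6 control libraries alone (6.01% of all genes) and 6 without both P14 libraries of replicate 1 (7.09%), and ran from 5 to 11 with 1 library left out. In dMF1/2 between the days, the 3 became 7 with DESeq2 (10% of all genes) and 0 in a limma fit of the 6 dMF1/2 libraries alone (2.41%; at an unadjusted p under 0.05, 12 members and 21.9% of all genes), and ran from 1 to 4 with 1 library left out. The interaction count stayed 0 in every fit, the block included. The replicate block within a day changed no call of a named member other than those given beside the results. The cause of these shifts was not tested. Of 487 repeats of the value of a member under the naming rule, 401 kept direction and side of the threshold, 80 kept direction and lost the call, 6 gained it and 0 reversed. Members near 10 normalized reads are limited by depth.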

Other observations

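A further 8 carriers met the name rule in 1 table only and are given as values. Slc9a2, a sodium-proton exchanger, was in the P14 table alone, with 0 to 6 reads per library. Slc4a5, Slc5a10, Slc7a3, Slc9a3, Slc10a5, Slc13a3 and Slc14a1 were in the P16 table alone, with 0 to 7 reads per library. Slc14a1, a urea transporter, was the only member of family Slc14 listed on either day, with a mean of 4.17 normalized reads in P16 controls and 1.41 in P16 dMF1/2, and Slc7a3, a cationic amino acid transporter, had 1.21 and 4.17. All 8 were under the mean of 10 needed for the test.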
